A study of Mus musculus with 28 samples.

Results

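Hepatic bile acid transporters were described as a set of 10 genes, chosen by symbol from the membrane proteins that carry bile acids into and out of hepatocytes and matched to Ensembl identifiers among the 21935 genes of a liver count table. The set held 2 exporters of the canalicular membrane (Abcb11 and Abcc2), 4 genes of basolateral export (Slc51a, Slc51b, Abcc3 and Abcc4) and 4 genes of sinusoidal uptake (Slc10a1, Slco1a1, Slco1a4 and Slco1b2). RNA was sequenced from the livers of 28 male B6.V-Lepob/JRj mice, which lack leptin, were 5 weeks old when obtained, and ate the AMLN diet (high in trans fat, with fructose and added cholesterol), which started 14 weeks before treatment and went on during it. Vehicle (carboxymethylcellulose, 10 mice), obeticholic acid (OCA) at 30 mg/kg (9 mice) or INT-787 at 30 mg/kg (9 mice) was given orally once daily for 2 weeks. OCA is chenodeoxycholic acid with an added ethyl group, INT-787 is OCA with an added hydroxyl group, and both activate the farnesoid X receptor (FXR, encoded by Nr1h4). All groups shared the leptin deficiency and the diet, so no lean or chow-fed mouse entered any comparison, and both drugs were compared with the same vehicle mice.

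Hepatocytes take bile acids from portal blood across the sinusoidal membrane, chiefly through the sodium-dependent carrier encoded by Slc10a1 and the organic anion carriers of the Slco family, and secrete them into the canaliculus through the bile salt export pump encoded by Abcb11. When bile acids accumulate, they can leave across the basolateral membrane through Abcc3, Abcc4 and the heteromer of Slc51a and Slc51b. FXR is the nuclear receptor for bile acids, and Abcb11, Slc51a and Slc51b are known targets of it in liver or gut. It binds as a heterodimer with the retinoid X receptor to inverted repeats of a hexamer with a single spacer base.

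The median total count per mouse was 14864947, the lowest was 1009593 (vehicle replicate 6) and the highest 22421506, and 12580 genes passed the filter on low counts. Of the 10 transporter genes, 9 passed and Slc51a did not. The hepatocyte markers (Alb, Apoa1, Ttr and 5 others) were abundant in every library, with summed levels of 76238 to 214497 CPM (counts scaled to the TMM-adjusted library total). Of 9 intestinal genes, among them Fabp6, Sis and Reg3b, 7 to 9 were nevertheless detected in each of 10 libraries. These were vehicle replicates 6, 8 and 10, OCA replicates 6, 7, 8 and 9, and INT-787 replicates 7, 8 and 9, with 23 to 2339 counts over the 9 genes against 0 or 1 count in the other 18 libraries. All 10 carried sample numbers of 2098 or higher, a range in which 5 libraries held none of these genes. The source of these transcripts was not tested. The intestinal genes were chosen after the data had been seen, and values of the transporter genes that changed sign, lost or gained a call or moved by over 1.5 times when the 10 libraries were left out are given both ways.

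The regulatory sequence beside these genes is shown first, because the promoter of Abcb11 holds a near match to the inverted repeat and Abcb11 responded to both drugs. The motif AGGTCANTGACCT, which reads the same on both strands, was searched in RefSeq promoter windows (GRCm38.p6, 250 bases before each start and the first bases after it) of 9 of the 10 genes. A match with at most 1 mismatch occurred at Abcb11 and at Slco1b2, compared with 0.0822% of 32851 windows. The 250 bases upstream of each start are printed in the direction of transcription with the best match in capitals, from chr2:69342617-69342866 on the minus strand for Abcb11 and from chr6:141629268-141629517 on the plus strand for Slco1b2.
Abcb11: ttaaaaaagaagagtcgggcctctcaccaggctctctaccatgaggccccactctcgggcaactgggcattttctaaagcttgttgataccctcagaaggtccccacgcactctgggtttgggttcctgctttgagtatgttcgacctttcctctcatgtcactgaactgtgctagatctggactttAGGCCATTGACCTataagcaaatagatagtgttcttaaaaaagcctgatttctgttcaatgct
Slco1b2: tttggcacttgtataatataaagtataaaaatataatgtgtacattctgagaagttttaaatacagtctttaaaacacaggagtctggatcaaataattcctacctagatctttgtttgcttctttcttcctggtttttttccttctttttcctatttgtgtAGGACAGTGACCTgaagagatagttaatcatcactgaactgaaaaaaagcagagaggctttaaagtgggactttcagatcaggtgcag
Counted from 1 at the first base of the motif, the substitution was T4C at Abcb11, where the match began 63 bases before the start, and T4A at Slco1b2, where it began 88 bases before the start. The best match of Slc51b, GGGTCATTCACCC, lay 187 bases before its start and carried the substitutions A1G, G9C and T13C. Matches with at most 3 mismatches occurred in 11.4% of all windows, which leaves the Slc51b match near the background. The best matches of the other genes had 3 to 5 mismatches. These are matches of letters, and binding was not measured.

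Levels of different genes were compared per kilobase of exon. In vehicle livers Slco1b2 (120 ± 20.8 CPM per kilobase, SD, n = 10), Slc10a1 (102 ± 15), Abcc3 (96.5 ± 12), Abcc2 (75.2 ± 17.9) and Abcb11 (70.8 ± 17.3) were the abundant genes of the set, and neighbours in this order overlapped within 1 SD. Slco1a4 followed at 5.97 ± 1.49 CPM per kilobase, below Abcb11 by more than the spread. Slc51b (3.14 ± 1.15) and Abcc4 (2.6 ± 0.819) overlapped each other. Slco1a1 and Slc51a were lowest, at 0.218 ± 0.211 and 0.183 ± 0.371 CPM per kilobase. Abcb11 was lowest of these 5 in vehicle and led the set in both treated groups, at 162 ± 33.1 CPM per kilobase with OCA and 230 ± 46.8 with INT-787 (n = 9 each). In both groups Abcb11 and the next gene, Slco1b2 (144 ± 38.5 with OCA and 153 ± 32.7 with INT-787), still overlapped within 1 SD. Slc51b moved above Slco1a4 in both treated groups.

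**Figure D1:**
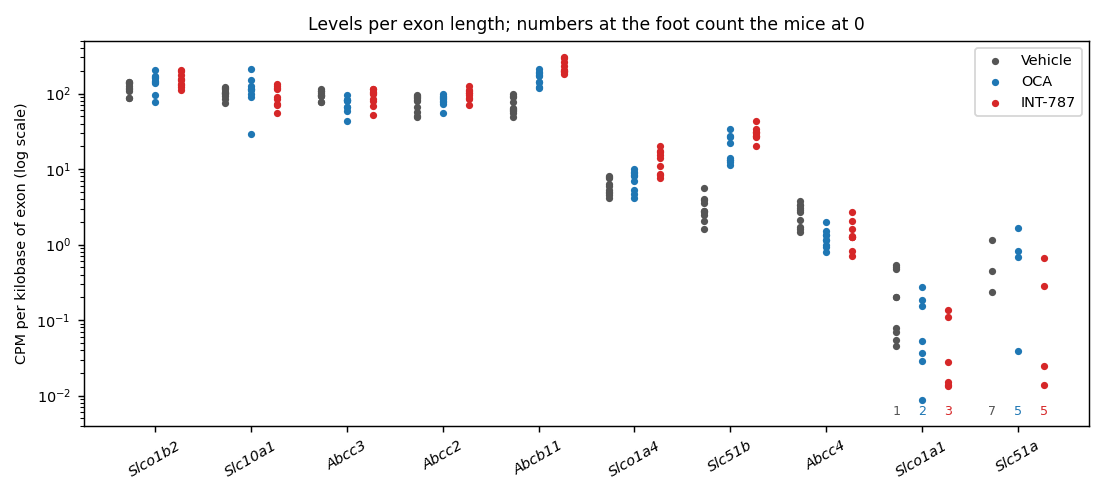
Level of each transporter gene per kilobase of exon (CPM per kilobase, log scale) in vehicle, OCA and INT-787 livers, 1 point per mouse, with genes in the order of their vehicle means; the numbers at the foot count mice with 0 counts, which a log scale cannot show. Abcb11 and Slc51b climb in both treated groups, and Slco1a1 and Slc51a hold the mice at 0.

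INT-787 raised 4 of the 9 tested transporter genes (Abcb11, Abcc2, Slc51b and Slco1a4) and lowered 2 (Abcc4 and Slco1a1), by edgeR's quasi-likelihood test with a Benjamini-Hochberg adjusted p of at most 0.05 over all 12580 genes. In that comparison 19.6% of all tested genes were called, 10.2% higher and 9.48% lower. OCA raised 2 (Abcb11 and Slc51b) and lowered 1 (Abcc4), where 6.6% of all tested genes were called, 4.15% higher and 2.45% lower. INT-787 exceeded OCA in 2 (Abcb11 and Slco1a4), where 5.38% were called, 2.19% higher and 3.19% lower. The median absolute log2 fold change of the 9 genes was 0.84 for INT-787 over vehicle, 0.41 for OCA over vehicle and 0.32 for INT-787 over OCA, beside 0.18, 0.13 and 0.13 over all tested genes. The groups did not overlap for Abcb11 and Slc51b in either comparison with vehicle, a separation found in 2.66% of all tested genes for INT-787 and 0.89% for OCA. Between the drugs the groups overlapped for every tested transporter gene, and 0.509% of all tested genes were separated.

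**Figure D2:**
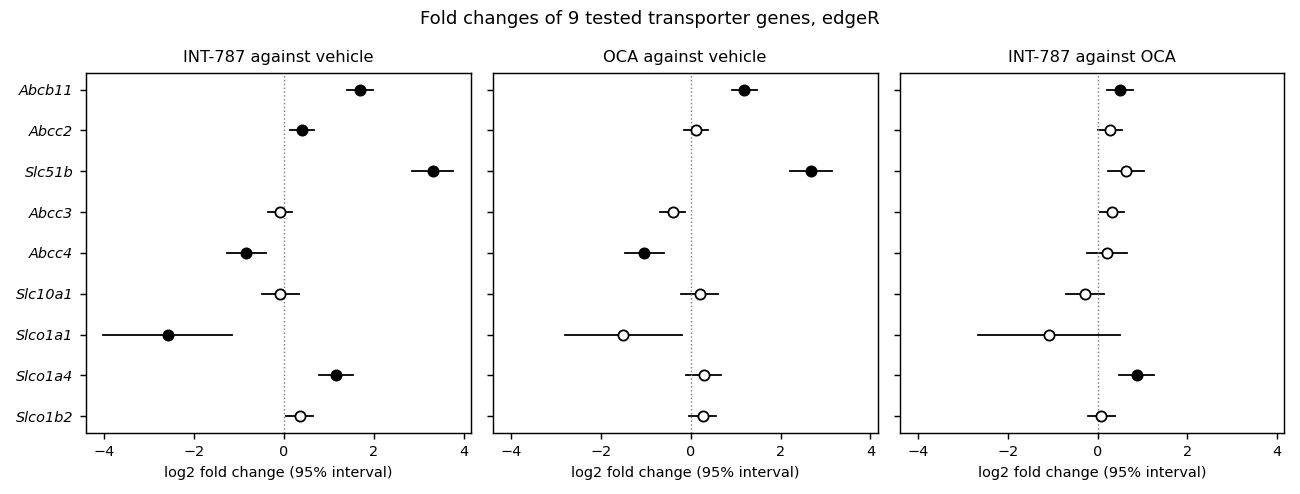
Log2 fold changes of the 9 tested transporter genes with 95% intervals, from edgeR, in the 3 comparisons; filled points have an adjusted p of at most 0.05 and open points do not. In the comparison between the drugs only Abcb11 (0.50) and Slco1a4 (0.87) are filled, while the intervals of the open points Slc51b (0.23 to 1.03), Abcc3 (0.047 to 0.60) and Abcc2 (0.0054 to 0.54) lie above 0.

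Abcb11 (ENSMUSG00000027048, chr2:69238282-69342616, minus strand, GRCm38), the bile salt export pump, rose in every treated mouse above every vehicle mouse. In vehicle livers its lowest, median and highest levels were 253, 324 and 507 CPM. With OCA they were 615, 880 and 1088 CPM, and with INT-787 925, 1062 and 1586 CPM. The log2 fold change was 1.19 (SE 0.14, adjusted p = 3.57e-07, edgeR) with OCA and 1.70 (SE 0.14, adjusted p = 9.24e-11, edgeR) with INT-787, and all 9 mice of each drug group lay above the vehicle range. Between the drugs Abcb11 was higher with INT-787 by a log2 difference of 0.50 (95% interval 0.21 to 0.79, adjusted p = 0.0307, edgeR), with 4 of 9 INT-787 mice above all OCA mice. This difference lost its call when any 1 of INT-787 replicates 1, 5 or 7 or OCA replicates 5, 6 or 8 was left out (adjusted p 0.0528 to 0.0741). Without the 10 libraries that held intestinal genes it was 0.42 (95% interval 0.071 to 0.77, adjusted p = 0.361, edgeR), with 5 OCA and 6 INT-787 mice. Both increases over vehicle were called in every refit at the same threshold.

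In bulk liver, a change in the number of cells of a type and a change in the RNA each cell holds cannot be told apart. The summed hepatocyte markers ranged from 76238 to 147646 CPM in vehicle, 122249 to 214497 CPM with OCA and 110149 to 181148 CPM with INT-787, and 3 and 2 of the 8 markers rose with OCA and INT-787, where 4.15% and 10.2% of all tested genes rose. Between the drugs 1 of the 8, Fga, was lower with INT-787 (-0.40, adjusted p = 0.0209, edgeR). Of 9 pericentral genes edgeR called 0 in each comparison (2 at an unadjusted p under 0.05 with OCA, 0 with INT-787 and 1 between the drugs, DESeq2 calling 1 with OCA and 1 between the drugs and limma-voom 1 with OCA). Of 8 periportal genes, 7 rose with INT-787 and 6 with OCA, beside the same shares of all tested genes, and 1 was higher with INT-787 than with OCA. They were led by Hal, the first enzyme of histidine breakdown (log2 fold change 2.27 and 2.00). With INT-787, 6 of 9 stellate cell markers, 3 of 10 macrophage markers and 2 of 7 endothelial markers fell, where 9.48% of all tested genes fell. Between the drugs, 4 of 9 stellate, 4 of 10 macrophage and 1 of 7 cholangiocyte markers were lower with INT-787 and 1 macrophage marker was higher, beside 3.19% and 2.19% of all tested genes. Without the 10 libraries with intestinal genes the 4 stellate markers were called again, whereas 0 macrophage, 0 cholangiocyte and 0 hepatocyte markers were called between the drugs by edgeR (3, 1 and 2 at an unadjusted p under 0.05, Fga at -0.49 with an adjusted p of 0.0760). In that setting 5 stellate, 1 macrophage and 1 endothelial markers fell with INT-787 relative to vehicle, where 842 of 12623 tested genes fell. Of periportal genes 7 and 5 rose with INT-787 and OCA, where 1072 and 410 of all tested genes rose. Of the 8 hepatocyte markers 2 and 1 rose in the same order. Between the drugs 161 of the 12623 genes were called in that setting. Of stellate and macrophage markers, with OCA 0 fell, where 1 stellate and 2 macrophage markers had an unadjusted p under 0.05 and DESeq2 and limma-voom also called 0. Of 7 endothelial markers edgeR called 0 with OCA, where 2.45% of all tested genes fell, and 4 had an unadjusted p under 0.05. Their median log2 value was -0.32 with OCA and -0.33 with INT-787. Without the 10 libraries 1 endothelial marker fell with OCA, where 224 of 12623 tested genes fell. The part of these shifts in the transporter changes was not tested.

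Abcc2 (ENSMUSG00000025194, chr19:43782192-43840740, plus strand), which exports conjugated bilirubin and divalent bile acid conjugates into bile, ran from 415 to 812 CPM in vehicle livers with a median of 691. It ran from 470 to 832 CPM with OCA (median 727) and from 609 to 1082 CPM with INT-787 (median 870). The INT-787 group was shifted upward yet overlapped the vehicle group, with 6 of 9 mice above every vehicle mouse. INT-787 changed it by a log2 value of 0.40 (SE 0.13, adjusted p = 0.0280, edgeR) and OCA by 0.12 (95% interval -0.14 to 0.38, adjusted p = 0.700, edgeR). The rise with INT-787 was close to the threshold. It was not called without INT-787 replicate 3, vehicle replicate 5, vehicle replicate 9 or vehicle replicate 10, each left out singly (adjusted p 0.05001 to 0.0658), nor in 5 alternatives, among them upper-quartile scaling (adjusted p = 0.0517, edgeR). Between the drugs the log2 difference was 0.27 (95% interval 0.0054 to 0.54, adjusted p = 0.252, edgeR).

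**Figure D3:**
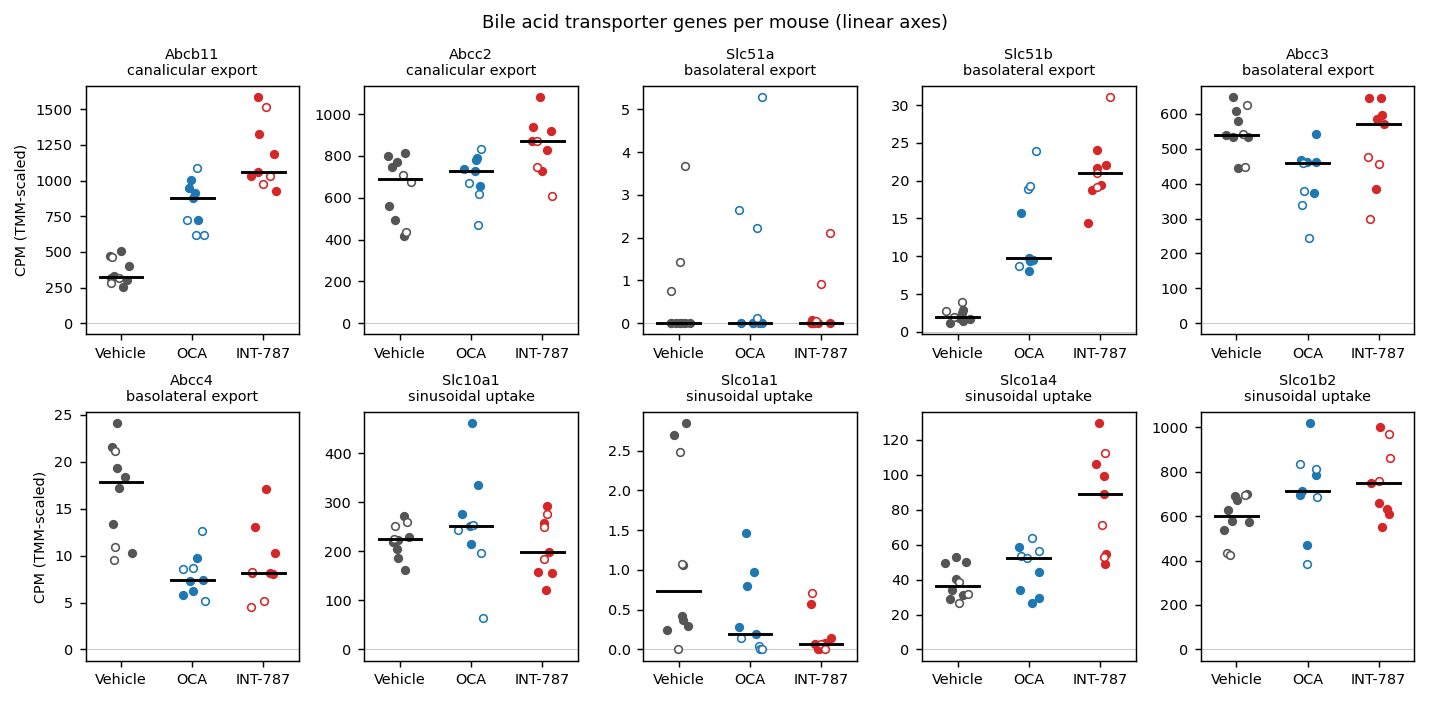
CPM of each of the 10 transporter genes in every mouse by group (linear axes), with the group median as a line; open points are the 10 libraries that held intestinal genes. Abcb11 and Slc51b show no overlap between vehicle and either drug, and every Slc51a value above 0.1 CPM is an open point.

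Slc51b (ENSMUSG00000053862, chr9:65412714-65422955, minus strand), the beta subunit of the organic solute transporter, had the highest fold changes of the set. In vehicle livers its lowest, median and highest levels were 1.15, 1.96 and 3.96 CPM, from 3 to 48 counts per mouse. With OCA they were 8.11, 9.79 and 24 CPM and with INT-787 14.5, 21 and 31.1 CPM. Every treated mouse exceeded every vehicle mouse. The log2 fold change was 2.68 (SE 0.23, adjusted p = 5.78e-10, edgeR) with OCA, 6.39-fold, and 3.31 (SE 0.23, adjusted p = 1.40e-12, edgeR) with INT-787, 9.91-fold. Of the OCA mice, 5 lay between 8.11 and 9.79 CPM and 4 between 15.8 and 24 CPM. Of these 4, OCA replicates 7, 8 and 9 held intestinal genes and OCA replicate 4 did not. OCA replicate 6, with the most counts of intestinal genes, was among the lower 5 at 8.69 CPM.

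Between the drugs the log2 difference of Slc51b was 0.63 (95% interval 0.23 to 1.03), and with an adjusted p of 0.0517 from edgeR it fell just short of the threshold. Without the 10 libraries with intestinal genes the means were 1.94 ± 0.580 CPM (SD, n = 7) in vehicle, 10.5 ± 3.01 (n = 5) with OCA and 20.1 ± 3.36 (n = 6) with INT-787. The difference was then 0.96 (95% interval 0.58 to 1.34, adjusted p = 0.00740, edgeR). In the 10 libraries the means were 2.89 ± 1.01 (n = 3), 17.7 ± 6.44 (n = 4) and 23.7 ± 6.42 CPM (n = 3), in the same order of groups. Leaving out a single library brought the difference below the threshold in 7 cases, namely INT-787 replicate 2, vehicle replicates 3, 5 and 10, and OCA replicates 7, 8 and 9 (adjusted p 0.0124 to 0.0493). Cholangiocytes also express Slc51b. The summed level of 8 cholangiocyte markers was 492 to 810 CPM in vehicle, 449 to 1635 CPM with OCA and 344 to 547 CPM with INT-787. Of the 7 tested markers 2 fell with INT-787, where Slc51b was highest and 9.48% of all tested genes fell. With OCA edgeR called 0 of the 7, beside 6.6% of all tested genes. Without the 10 libraries it called 0 of 8 with OCA, beside 634 of 12623 genes. Of these 8, 6 had an unadjusted p under 0.05, among them Krt7 (-0.60) and Cftr (-0.87). No marker was at 0 in a whole group, and the part of cholangiocytes and of intestinal RNA in the Slc51b values was not tested.

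Slc51a (ENSMUSG00000035699, chr16:32474504-32487879, minus strand), the alpha subunit without which Slc51b forms no transporter, was almost absent from the libraries free of intestinal genes. It was at 0 counts in 17 of those 18 and at 1 count in INT-787 replicate 6. The limit that 3 counts set over these libraries was 0.0322 CPM in vehicle and 0.0433 CPM with OCA, both at 0 counts, for counting error only. All 10 libraries with intestinal genes held Slc51a, from 1 to 115 counts. Its highest levels were 3.68 CPM in vehicle replicate 6 (4 counts), 5.29 CPM in OCA replicate 6 and 2.11 CPM in INT-787 replicate 9, and the median of each group was 0. It did not pass the filter on low counts, so no fold change is given. Slc51a shares 567 exon bases with Pcyt1a on the opposite strand, and 15.4% of its 75-base stretches occur in that gene, which is expressed in liver. In the libraries free of intestinal genes no effect of either drug on Slc51a was detectable at this depth, whereas its partner Slc51b was higher in the treated mice among them.

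**Figure D4:**
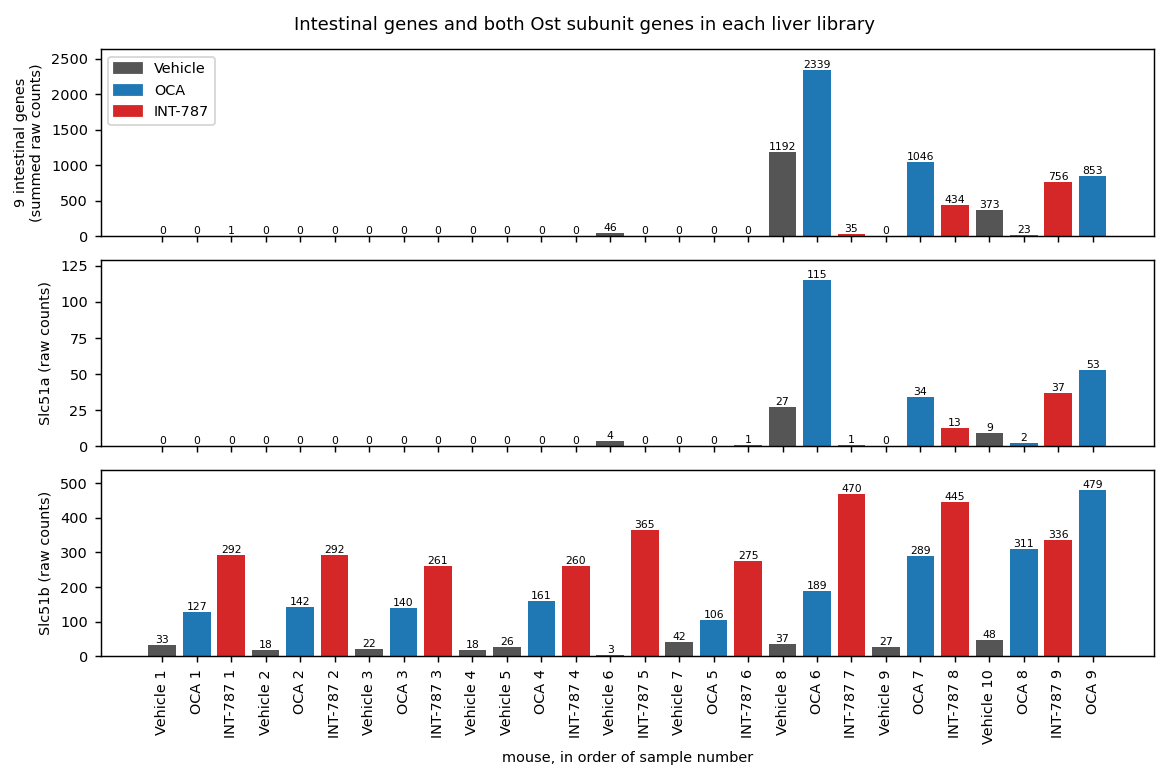
Raw counts per library, in order of sample number, of 9 intestinal genes summed (top), Slc51a (middle) and Slc51b (bottom), with bars coloured by group; the number over each bar is the count. Slc51a reaches more than 1 count only in libraries that hold intestinal genes, whereas Slc51b is present in all 28 and higher in both treated groups.

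Abcc3 (ENSMUSG00000020865, chr11:94343295-94392997, minus strand), a basolateral exporter of glucuronides and bile acids, was not called by edgeR with either drug, whereas DESeq2 (adjusted p = 0.0276) and limma-voom (adjusted p = 0.0455) called a fall with OCA. Its lowest, median and highest levels were 445, 540 and 649 CPM in vehicle, 245, 459 and 542 CPM with OCA and 300, 570 and 646 CPM with INT-787. With OCA 4 of 9 mice lay below every vehicle mouse. Relative to vehicle the log2 value was -0.41 (SE 0.13, adjusted p = 0.0580, edgeR) with OCA and -0.09 (95% interval -0.35 to 0.18, adjusted p = 0.705, edgeR) with INT-787. The OCA value was past the threshold without OCA replicate 2, vehicle replicate 5, vehicle replicate 10 or INT-787 replicate 8 (adjusted p 0.0301 to 0.0461), and was -0.28 (adjusted p = 0.220, edgeR) without the 10 libraries that held intestinal genes. The INT-787 value in that setting was 0.04. In the 10 libraries the mean with OCA was 356 ± 88.7 CPM (n = 4), compared with 461 ± 59.6 (n = 5) in the others. Between the drugs the log2 difference was 0.32 (95% interval 0.047 to 0.60, adjusted p = 0.173, edgeR).

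Abcc4 (ENSMUSG00000032849, chr14:118482692-118706219, minus strand), which exports bile acids together with glutathione, fell with both drugs. Its lowest, median and highest levels were 9.49, 17.8 and 24.1 CPM in vehicle, 5.15, 7.37 and 12.6 CPM with OCA and 4.54, 8.17 and 17.1 CPM with INT-787. The groups overlapped, with 7 of 9 OCA mice and 6 of 9 INT-787 mice below every vehicle mouse. The fall on the log2 scale gave -1.04 (SE 0.21, adjusted p = 0.00137, edgeR) with OCA and -0.84 (SE 0.21, adjusted p = 0.00471, edgeR) with INT-787, and both were called in every refit at the same threshold. The difference between the drugs was 0.20 (95% interval -0.24 to 0.64, adjusted p = 0.703, edgeR), and 0.58 (95% interval 0.13 to 1.04, adjusted p = 0.305, edgeR) without the libraries with intestinal genes.

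Slc10a1 (ENSMUSG00000021135, chr12:80953183-80968705, minus strand), the sodium-dependent taurocholate carrier, was not called in any comparison. Its lowest, median and highest levels were 163, 224 and 271 CPM in vehicle, 63.2, 252 and 461 CPM with OCA and 120, 199 and 292 CPM with INT-787. The spread was widest with OCA, where the mean was 255 ± 107 CPM (SD, n = 9) compared with 223 ± 33.0 (n = 10) in vehicle, and both the lowest and the highest mouse of the study were OCA mice. On the log2 scale the change was 0.19 (95% interval -0.22 to 0.61, adjusted p = 0.693, edgeR) with OCA and -0.09 (95% interval -0.50 to 0.33, adjusted p = 0.820, edgeR) with INT-787. The log2 difference between the drugs was -0.28 (95% interval -0.70 to 0.15, adjusted p = 0.522, edgeR). Without the libraries with intestinal genes the OCA mean was 308 ± 96.1 CPM (n = 5) and the log2 fold change 0.52 (95% interval 0.11 to 0.93, adjusted p = 0.142, edgeR). The difference between the drugs was then -0.63 (95% interval -1.06 to -0.20, adjusted p = 0.191, edgeR).

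Slco1b2 (ENSMUSG00000030236, chr6:141629518-141686646, plus strand), the liver-restricted carrier of unconjugated bile acids, was not called either. It ran from 427 to 698 CPM in vehicle (median 602), from 386 to 1017 CPM with OCA (median 713) and from 551 to 1002 CPM with INT-787 (median 747). With each drug 5 of 9 mice exceeded every vehicle mouse. Fold changes on the log2 scale were 0.35 (95% interval 0.053 to 0.64, adjusted p = 0.0888, edgeR) with INT-787 and 0.26 (95% interval -0.033 to 0.55, adjusted p = 0.347, edgeR) with OCA. Between the drugs it was 0.09 (95% interval -0.22 to 0.39, adjusted p = 0.833, edgeR). Without the libraries with intestinal genes the INT-787 value was 0.16 (95% interval -0.15 to 0.48) and the difference between the drugs -0.06. Slco1b2 and Abcb11 both hold a match with 1 mismatch upstream of their starts, and the part of these matches in their values was not tested.

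Slco1a4 (ENSMUSG00000030237, chr6:141805440-141856199, minus strand), a carrier of organic anions and bile acids, rose with INT-787. Its lowest, median and highest levels were 26.6, 36.2 and 52.7 CPM in vehicle, 26.6, 52.2 and 63.7 CPM with OCA and 48.6, 89 and 129 CPM with INT-787. With INT-787 8 of 9 mice exceeded every vehicle mouse and 6 of 9 exceeded every OCA mouse. The log2 fold change over vehicle was 1.15 (SE 0.19, adjusted p = 3.25e-05, edgeR) with INT-787 and 0.29 (95% interval -0.10 to 0.67, adjusted p = 0.457, edgeR) with OCA. The difference between the drugs itself was 0.87 (95% interval 0.48 to 1.25, adjusted p = 0.00564, edgeR). It was called in every refit at the same threshold and was 1.20 (95% interval 0.69 to 1.71, adjusted p = 0.0115, edgeR) without the libraries with intestinal genes. In that setting the OCA value against vehicle changed sign, to -0.09 (95% interval -0.57 to 0.39).

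Slco1a1 (ENSMUSG00000041698, chr6:141907282-141946962, minus strand), a related carrier, was scarce in all groups, with 158 counts over the 10 vehicle mice, 58 over the OCA mice and 29 over the INT-787 mice. Its lowest, median and highest levels were 0, 0.740 and 2.85 CPM in vehicle, 0, 0.196 and 1.46 CPM with OCA and 0, 0.0723 and 0.715 CPM with INT-787. The 3 groups overlapped, and the mice at 0 numbered 1, 2 and 3. The log2 fold change was -2.59 (95% interval -4.02 to -1.16, adjusted p = 0.00842, edgeR) with INT-787 and -1.50 (95% interval -2.80 to -0.21, adjusted p = 0.181, edgeR) with OCA. The difference between the drugs was -1.09 (95% interval -2.67 to 0.50, adjusted p = 0.497, edgeR). Leaving out INT-787 replicate 7 took the INT-787 value to -3.38 and the difference between the drugs to -1.88, and leaving out OCA replicate 3 took that difference to -0.58. Without the libraries with intestinal genes the OCA value was -0.47 (95% interval -1.80 to 0.86, and -0.09 when vehicle replicate 5 was left out as well), the INT-787 value -2.89 and the difference between the drugs -2.42 (95% interval -4.20 to -0.64, adjusted p = 0.257, edgeR). Slco1a1 and Slco1a4 are neighbours on chromosome 6 and share reads only slightly, with 1.08% and 1.03% of their 75-base stretches also found in another gene of the cluster, and they moved in opposite directions with INT-787.

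The comparison of the 2 drugs, which differ by a hydroxyl group and were given at the same dose and time, thus covered 9 genes with p adjusted over all 12580 tested genes. With all libraries edgeR called Abcb11 and Slco1a4 higher with INT-787. The Abcb11 call was lost in the fits named above, whereas Slco1a4 was called in every refit at the same threshold. Slc51b missed the threshold in edgeR and passed it in DESeq2 (adjusted p = 0.0349) and limma-voom (adjusted p = 0.0145). For the other genes the intervals with all libraries are given above, and those of Abcc4, Slc10a1 and Slco1a1 reached further from 0 without the libraries with intestinal genes. A missed threshold does not show that the drugs acted alike.

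Other transporters of the hepatocyte were counted beside the set, with the same background percentages. Of 22 tested genes of 26 listed, 9 rose and 1 fell with INT-787, 7 rose and 2 fell with OCA, and 1 was higher with INT-787 than with OCA. In fits without the libraries with intestinal genes 6 rose and 0 fell with OCA (12 at an unadjusted p under 0.05 in either direction). There 410 rose and 224 fell of 12623 tested genes. Between the drugs DESeq2 called 5 and limma-voom 2, and 9 had an unadjusted p under 0.05 in edgeR. The gene called by edgeR was Abcb1a, an efflux pump of drugs and other amphipathic compounds on the canalicular membrane, at 23.7 ± 7.45 CPM in vehicle (n = 10), 52.6 ± 13 with OCA and 86.4 ± 14.5 with INT-787 (n = 9 each). Its log2 difference between the drugs was 0.71 (SE 0.16, adjusted p = 0.00740, edgeR). Slc22a7, an organic anion carrier of the sinusoidal membrane, rose from 4.79 ± 2.56 CPM by 2.33 on the log2 scale with INT-787 and by 2.02 with OCA. The sterol exporter genes Abcg5 (log2 fold change 0.82 with INT-787 and 0.74 with OCA) and Abcg8 (0.56 and 0.62) and the flippase gene Atp8b1 (0.43 and 0.44) rose with both drugs. Abcb4, the canalicular phospholipid floppase, rose with INT-787 (0.37, adjusted p = 0.00712, edgeR), while its value with OCA was 0.05 (adjusted p = 0.853, edgeR). Its difference between the drugs was 0.32 (adjusted p = 0.0589, edgeR). Without the 10 libraries with intestinal genes Abcb4 was 0.39 with INT-787 (adjusted p = 0.00762, edgeR) and 0.20 with OCA (adjusted p = 0.299, edgeR). The difference between the drugs was then 0.20 (adjusted p = 0.600, edgeR). Slc10a2, the sodium-dependent carrier of ileum and cholangiocytes, rose with OCA (0.52, adjusted p = 0.0360, edgeR) and was 0.13 with INT-787 (adjusted p = 0.614, edgeR). Intestinal genes were present in 4 of 9 OCA libraries, and without the 10 libraries the OCA value of Slc10a2 was 0.35 (adjusted p = 0.336, edgeR). The part of intestinal RNA in it was not tested.

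Genes of bile acid conjugation, sulfation and intracellular binding were called with INT-787, where 4 rose and 1 fell of 11 tested, beside 10.2% and 9.48% of all tested genes. With OCA edgeR, DESeq2 and limma-voom each called 0, beside 6.6% of all tested genes in edgeR, and 3 had an unadjusted p under 0.05 in edgeR. Slc27a5, which activates returning bile acids for reconjugation, rose by 0.61 on the log2 scale (SE 0.12, adjusted p = 0.000290, edgeR) with INT-787, and its OCA value was 0.27 (adjusted p = 0.187, edgeR). The difference between the drugs was called for 3 of the 11, beside 5.38% of all tested genes. Gstm1, a glutathione transferase, was higher with INT-787 (0.63), as was the sulfotransferase Sult2a8 (1.21), and the acyltransferase Acnat2 was lower (-0.47).

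Scaffold and trafficking genes of the canaliculus had 1 up and 2 down of 11 with INT-787, beside 10.2% and 9.48% of all tested genes. With OCA 1 was up and 1 down, beside 4.15% and 2.45%. Between the drugs edgeR called 0, beside 5.38% of all tested genes (2 at an unadjusted p under 0.05, 1 called by DESeq2 and 0 by limma-voom). Slc9a3r1, which anchors apical carriers to ezrin proteins, rose with both (0.40 and 0.45), and Pdzk1, another scaffold, fell with both (-0.53 and -0.36). Rdx, encoding radixin, which tethers Abcc2 at the canaliculus, was not called (0.20 and 0.15). Among receptors and transcription factors that act on transporter genes, 6 rose and 1 fell of 18 tested with INT-787 (10.2% and 9.48% of all tested genes). With OCA 2 of the 18 rose, beside 4.15% of all tested genes. Between the drugs edgeR, DESeq2 and limma-voom each called 0, beside 5.38% of all tested genes in edgeR, with 2 at an unadjusted p under 0.05. Nr0b2, the FXR-induced repressor SHP, rose by 1.62 and 1.17 on the log2 scale. Nr1h4 itself was at 115 ± 19 CPM in vehicle, 102 ± 20.6 with OCA and 99.9 ± 17.9 with INT-787 and was not called. Nr1i2, the pregnane X receptor, rose with INT-787 (0.58, adjusted p = 0.00711, edgeR), and its difference between the drugs was 0.42 (adjusted p = 0.111, edgeR).

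Of 11 tested genes of bile acid synthesis, 5 rose and 3 fell with INT-787 (10.2% and 9.48% of all tested genes) and 4 rose and 4 fell with OCA (4.15% and 2.45%). The OCA counts were 3 and 2 without the 10 libraries with intestinal genes, and those with INT-787 were the same 8 genes. In that setting 410 rose and 224 fell of 12623 tested genes with OCA, and 1072 rose and 842 fell with INT-787. Cyp7a1, the rate-limiting enzyme, fell from 60.3 ± 30.0 CPM in vehicle to 10.4 ± 3.91 with OCA and 12.6 ± 6.09 with INT-787, and Cyp8b1, the sterol hydroxylase that directs synthesis to cholic acid, from 120 ± 41.9 to 7.24 ± 8.64 and 6.24 ± 14.2 CPM. The difference between the drugs was called for 2 of the 11, Akr1d1 (0.88) and Cyp27a1 (0.42), both higher with INT-787, where 2.19% of all tested genes were higher. Without the 10 libraries, and so with 18 mice, edgeR did not call the differences between the drugs of Abcb1a (0.78, adjusted p = 0.0509), Cyp27a1 (0.38, adjusted p = 0.130), Acnat2 (-0.37, adjusted p = 0.487) and Sult2a8 (0.79, adjusted p = 0.450), each in the same direction as with all mice. The values of Nr1i2 with INT-787 (0.49, adjusted p = 0.0589) and of Pdzk1 with OCA (-0.30, adjusted p = 0.137) were likewise of the same sign and not called by edgeR.

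Within groups, the mouse to mouse variation of each transporter gene was described by the Pearson correlation of log2 CPM centred on the group means over 28 mice. Abcc2 and Abcc3 varied together (r = 0.646), as did Abcc3 and Slc10a1 (r = 0.537) and Abcb11 and Abcc2 (r = 0.501). Abcb11 and Slc51b, which both rose with both drugs, showed r = -0.05, and 0.173 without the 10 libraries with intestinal genes. Slc51b and Abcc3 went in opposite directions (r = -0.505, and -0.429 without those libraries). Without the 10 libraries with intestinal genes, the value for Abcc2 and Abcc3 was 0.344, that for Abcb11 and Abcc2 0.351 and that for Abcc3 and Slc10a1 0.518 (18 mice). The genes most like each member, among 9355 with a mean of at least 5 CPM, were Eprs for Abcb11 (r = 0.782), Dhx9 for Abcc2 (0.899), Tmem141 for Slc51b (0.796), Nomo1 for Abcc3 (0.885) and Synpo for Abcc4 (0.696). For the uptake genes they were Extl1 for Slc10a1 (0.836), Fam149a for Slco1a1 (0.697), Atl2 for Slco1a4 (0.779) and Akr1c14 for Slco1b2 (0.859). Without the 10 libraries, r was 0.541 for Extl1 and 0.502 for Fam149a, and without vehicle replicates 5 and 6 Fam149a ranked 28 among the genes most like Slco1a1, which has few counts. These mice share library preparation and depth differences, so the correlations are descriptions only.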

How the data were processed

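Liver poly(A) RNA of 28 mice was sequenced as stranded libraries, 1 per mouse. The authors aligned the reads with STAR 2.5.2a to GRCm38 with Ensembl release 89 and deposited raw counts per gene, not normalized. The counting program and its strand setting are not given in the sources used here. Groups came from the sample labels, and the mice are taken as separate replicates. The members, gene lists and tests were chosen with earlier results of these data known, and the intestinal genes and the fits without their libraries after the data had been seen. All members were named, as were list genes chosen among those that were called or bear on a member, and the 3 genes most like each tested member were computed, of which the first is given.

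Counts were analysed in R 4.3.3 with edgeR 4.0.16 (filterByExpr, TMM, quasi-likelihood test in a model of the 3 groups, Benjamini-Hochberg adjusted p of at most 0.05 over 12580 genes). The study's own tool, DESeq2 (1.42.0), limma-voom (limma 3.58.1) and other filters, normalizations, thresholds and covariates were alternatives, and every library was left out once. Symbols, coordinates and exon lengths came from GENCODE M21 (21858 of 21935 genes matched). CPM used TMM-scaled library totals, and correlations used log2(CPM + 0.5). Promoter sequences came from RefSeq. Protein sequences were not used here. A gene of the other transporters is counted but not reported here. The scripts' tests were checked on simulated data. At the depth of vehicle replicate 6 (1009593 counts), genes near 1 CPM rest on about 1 read in that mouse.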

Additional observations from a re-analysis of the deposited data

Results flagged for a closer look

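Of the 30 sets of mice examined (10 genes in 3 groups), 3 held a mouse that stood apart from the rest of its group, by a rule that chance meets in about 1 of 20 sets of normally distributed values. All 3 concerned Slc51a, to which that rate does not apply because most mice of each group were at 0. In vehicle, replicate 6 reached 3.68 CPM, with the next mouse at 1.43. In OCA, replicate 6 reached 5.29 CPM, with the next at 2.65. In INT-787, replicate 9 reached 2.11 CPM, with the next at 0.908. The 3 libraries and the mice next to them all held transcripts of intestinal genes, and the value of vehicle replicate 6 rests on 4 counts.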

How the results depend on the processing

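The number of transporter genes called was 6 for INT-787 over vehicle, 3 for OCA over vehicle and 2 for INT-787 over OCA. Leaving out each of the 28 mice in turn gave 4 to 6, 3 to 4 and 1 to 3, and the other alternatives 4 to 6, 3 to 4 and 0 to 3. Between the drugs, 1 gene was called at an adjusted p of at most 0.01 and 0 when a log2 fold change of 1 or more in either direction was required. Abcb11, Slc51b and Abcc4 against vehicle with both drugs, and Slco1a4 with INT-787 against vehicle and against OCA, were called at the same threshold in every fit that tested them, as was Slco1a1 with INT-787. A minimum of 10 counts in every mouse left Slc51b untested, and Slco1a1 was tested in 23 of the 28 fits that left out a mouse. It failed the filter on low counts when vehicle replicate 1, 2, 5, 8 or 10 was left out singly. These were the vehicle mice where it was highest (13 to 47 counts). Its calls therefore do not cover the loss of any 1 of these mice alone.

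Abcc2 with INT-787 was not called in 5 alternatives and in 4 fits that left out a mouse (adjusted p 0.05001 to 0.113 among these), Abcc3 with OCA was called in 9 and 4, and Slc51b between the drugs in 8 and 7, DESeq2 and limma-voom among them for both. Without the libraries holding intestinal genes, 3 values that were not called changed sign: Abcc3 with INT-787 to 0.0421, Slco1a4 with OCA to -0.0914 and Slco1b2 between the drugs to -0.0623, the latter pair also when vehicle replicate 5 was left out as well (-0.0907 and -0.0627). In the same setting 161 of all genes were called between the drugs, compared with 677, with 11 treated mice in place of 18. Thinning all libraries to 1009593 counts left 1038, 380 and 282 genes called in the 3 comparisons. Upper-quartile scaling changed the genes up and down to 960 and 1597 with INT-787 (from 1277 and 1192), 408 and 372 with OCA (from 522 and 308) and 228 and 480 between the drugs (from 276 and 401). The cause of these shifts was not tested.

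The replicate numbers were not taken as pairs, because 11 of 27 pairs with the same number, not all, correlated above 0.1 (median 0.077). All pairs of numbers 1 and 3 did, and a mouse correlated best with its own number, among the 9 or 10 mice of another group, in 13 of 54 cases. With mice grouped by sample number, 13 of 25 pairs correlated above 0.1 (median 0.105). With these sets as a factor Slc51b between the drugs was 0.83 (adjusted p = 0.00189) and Abcc3 with OCA -0.47 (adjusted p = 0.0138), both called. With the replicate number as a block, 2417, 868 and 677 genes were called. Under the block Abcc2 with INT-787 had a log2 fold change of 0.34 (adjusted p = 0.0583) and was not called, whereas Abcc3 with OCA (-0.46, adjusted p = 0.00871) and Slc51b between the drugs (0.70, adjusted p = 0.00761) were. Low counts limit Slco1a1, with 29 counts over the INT-787 mice.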
